A study of Mus musculus with 4 samples.

Results

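The 89 genes described here encode the protein machinery of oxidative phosphorylation that is made from nuclear genes: the subunits of respiratory complexes I to IV and of ATP synthase, several isoforms of complex IV subunits, and assembly factors of complex I. They were chosen by symbol alone, as all genes whose name begins with Nduf, Uqcr, Cox4, Cox5, Cox6, Cox7, Cox8 or Atp5, together with Sdha, Sdhb, Sdhc and Sdhd, and they are 89 of the 22180 genes with a value. The RefSeq gene table holds 115 symbols that match, so 26 were not analysed here. Of these, 17 are annotated as pseudogenes and 9 as protein coding. For 7 of the 9, namely Ndufb2, Ndufb4, Ndufb4b, Ndufb4c, Ndufs6, Cox6c and Uqcr10, the probe sets carry several symbols. The 89 measured genes were 71 subunits, 8 complex I assembly factors, 8 tissue-restricted isoforms of complex IV and the 2 pseudogenes Atp5c1-ps and Uqcrh-ps1.

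Mitochondria pass electrons from NADH through complex I, or from succinate through complex II, to ubiquinone, from there through complex III and cytochrome c to complex IV, and finally to oxygen. Complexes I, III and IV pump protons, and ATP synthase uses the return of the protons to make ATP. In the gut, absorptive epithelial cells are rich in mitochondria, and colonocytes oxidize butyrate made by bacteria.

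The study used 4 Affymetrix mouse arrays that cover whole transcripts, and each of the 4 groups has 1 array, all from C57Bl/6 mice aged 8 to 10 weeks. By the labels these were lamina propria T cells from the colon, intraepithelial lymphocytes (IEL, lymphocytes between the epithelial cells) of the small intestine of unmanipulated mice, colon IEL of unmanipulated mice, and colon IEL of mice given ampicillin, vancomycin, neomycin and metronidazole in drinking water for 7 days and then recolonized for 7 days. For recolonization the labels name co-housing in one place and bedding of littermates in another. The labels name pools of 10 mice (5 male and 5 female), once as the pool behind each sample and once as the total. Cells were enriched magnetically by negative selection of T cells with an added antibody against EpCAM, which is meant to remove epithelial cells. With 1 array per group there is no replicate, so no value has an error and no test or p-value is possible. All values are the deposited log2 levels, and a difference of 1 is a 2-fold difference.

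The marker genes were compared with the labels first, because most of the genes described here are active in nearly all cell types. On the array whose label names lamina propria T cells (hereafter the labelled LP array), Cd3e, which encodes the CD3 epsilon chain, was at 3.72 and the epithelial surface protein Epcam at 9.20. Cd3e was at 9.49, 9.17 and 9.43 on the small intestinal IEL, colon IEL and recolonized arrays, so the labelled LP array went against its label. The 10 pan-epithelial markers (Epcam, keratins and others, 10 of 10 measured) had median levels of 8.85, 7.43, 4.40 and 5.49 on the labelled LP, small intestinal IEL, colon IEL and recolonized arrays. Their log2 summed levels were 12.49, 11.65, 8.81 and 9.64, and none was below the median gene of any array. The T cell markers (7 of 8 measured) had medians of 2.61, 5.95, 5.64 and 6.76 in the same order, and the B cell markers (5 of 6 measured) 2.45, 6.65, 4.56 and 2.99. Stromal markers (6 genes) had medians of 2.80, 3.44, 6.10 and 4.94 and log2 summed levels of 5.39, 6.97, 9.24 and 9.45, with 3 collagen genes highest in colon IEL and Dcn, Lum and Pdgfra highest on the recolonized array. The red cell anion exchanger Slc4a1 was at 7.93 on the colon IEL array and at most 2.64 on the others. Levels also spread less on the colon IEL and recolonized arrays (SD over all genes 1.23 and 1.35) than on the small intestinal IEL and labelled LP arrays (1.67 and 1.81). The part of other cell types and of this spread in the differences between arrays was not tested, and in such mixed samples fewer cells of a type and less RNA per cell cannot be told apart.

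Median levels of the 89 genes followed the same order of arrays as those of the pan-epithelial markers. Their median was 5.83 on the labelled LP array, 5.11 in small intestinal IEL, 4.06 in recolonized and 3.39 in unmanipulated colon IEL, while the medians of all genes lay between 2.18 and 2.41. Of the 89, 53 (59.6%) had exactly this order from highest to lowest, against 12.8% of all 22180 genes; the order was noticed in the data and is given as a description. It was found in 34 genes after quantile normalization (8.48% of all genes) but in 4 (1.32% of all genes) when arrays were centred on the median level of ribosomal protein genes. Among the 71 subunits 49 had it as deposited, with 22 of 32 in complex I, 3 of 4 in complex II, 5 of 7 in complex III, 7 of 11 in complex IV and 12 of 17 in ATP synthase. Of the 63 cytosolic ribosomal protein genes, a set chosen by symbol, 3 had it. Between 11 and 14 of the 63 lay below the median gene of an array. Other sets did follow the order in their medians, given here from the labelled LP array over small intestinal and recolonized to colon IEL. A list of 8 reference genes such as Actb and Ywhaz had 7.95, 7.85, 6.95 and 6.85, and 11 glycolytic genes 6.55, 4.69, 4.36 and 3.76. The 2 lists share Gapdh and Pgk1. Log2 summed levels of all genes were 19.20, 19.00, 18.52 and 18.27, so the order is not particular to the 89 genes.

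**Figure D1:**
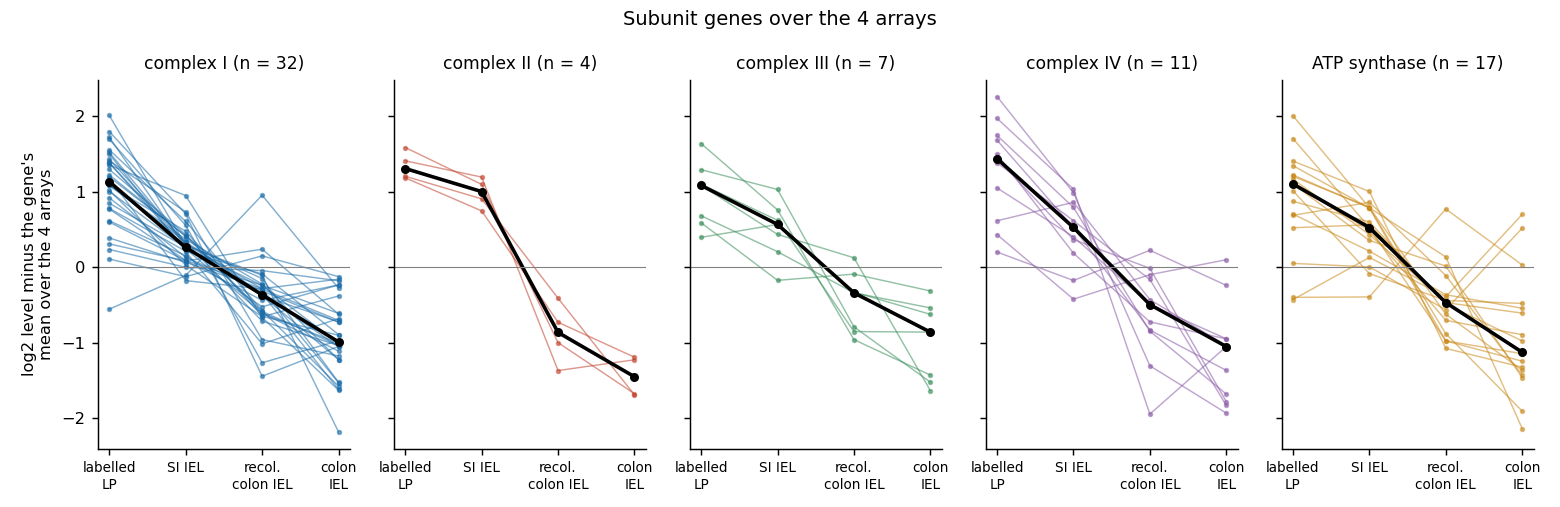
Level of each of the 71 subunit genes on the 4 arrays (x axis) as its deposited log2 level minus the gene's own mean over the 4 arrays (y axis), with 1 panel per complex, 1 coloured line per gene and the median in black. The medians descend from the labelled LP array over the small intestinal IEL and recolonized arrays to the colon IEL array in every panel. This order turns under centring on the level of ribosomal protein genes. Single genes such as Ndufs5, Atp5o and Atp5j2 go another way.

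The promoter windows of 6 genes are shown because most of these genes took the same order over the arrays: 1 subunit gene of each complex that was lower in colon IEL, and Cox7a1, the isoform gene with that order of levels. They are RefSeq windows of assembly GRCm38.p6, from 250 bases before to 50 bases after the start site, 300 bases in all, printed 5′ to 3′ on the gene's strand. Capitals mark matches, on either strand, to letters of factors known to act on mitochondrial genes: GCATGCGC (NRF1), CCGGAAG (ETS factors such as GABP), CAAGGTCA (estrogen-related receptors), AAGATGGC (YY1) and GGGCGG (the GC box). The genes shown were picked after their values and matches were seen.
Ndufs8 (chr19:3912725-3913024, minus strand): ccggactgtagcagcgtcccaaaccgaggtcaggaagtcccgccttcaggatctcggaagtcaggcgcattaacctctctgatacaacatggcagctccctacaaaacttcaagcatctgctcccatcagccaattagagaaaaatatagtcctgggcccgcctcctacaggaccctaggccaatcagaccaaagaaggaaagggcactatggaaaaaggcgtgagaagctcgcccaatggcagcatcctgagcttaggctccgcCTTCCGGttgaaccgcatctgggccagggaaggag
Sdhd (chr9:50603800-50604099, minus strand): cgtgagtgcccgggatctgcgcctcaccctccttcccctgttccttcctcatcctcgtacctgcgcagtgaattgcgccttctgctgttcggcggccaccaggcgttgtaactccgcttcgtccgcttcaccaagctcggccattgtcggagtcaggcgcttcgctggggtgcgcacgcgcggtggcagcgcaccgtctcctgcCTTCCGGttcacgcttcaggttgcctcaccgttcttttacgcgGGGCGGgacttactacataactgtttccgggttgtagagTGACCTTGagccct
Uqcrc1 (chr9:108936398-108936697, plus strand): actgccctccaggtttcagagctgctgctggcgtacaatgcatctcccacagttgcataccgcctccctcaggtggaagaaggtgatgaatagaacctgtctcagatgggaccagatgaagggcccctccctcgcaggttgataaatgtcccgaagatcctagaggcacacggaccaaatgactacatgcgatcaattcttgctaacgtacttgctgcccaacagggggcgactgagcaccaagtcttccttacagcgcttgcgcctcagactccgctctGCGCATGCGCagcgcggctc
Cox5a (chr9:57520982-57521281, plus strand): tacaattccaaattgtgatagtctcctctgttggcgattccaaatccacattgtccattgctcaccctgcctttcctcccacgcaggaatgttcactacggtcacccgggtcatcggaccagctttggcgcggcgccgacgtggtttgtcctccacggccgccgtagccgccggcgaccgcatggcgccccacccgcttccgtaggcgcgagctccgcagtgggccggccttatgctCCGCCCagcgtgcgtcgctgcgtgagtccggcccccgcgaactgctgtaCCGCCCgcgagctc
Atp5l (chr9:44920693-44920992, minus strand): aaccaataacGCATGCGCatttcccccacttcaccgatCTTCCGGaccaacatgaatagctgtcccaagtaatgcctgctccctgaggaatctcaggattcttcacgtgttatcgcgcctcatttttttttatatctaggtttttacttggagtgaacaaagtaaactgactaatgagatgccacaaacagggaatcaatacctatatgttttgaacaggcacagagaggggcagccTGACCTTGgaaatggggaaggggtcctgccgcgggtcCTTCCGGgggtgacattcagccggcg
Cox7a1 (chr7:30183921-30184220, plus strand): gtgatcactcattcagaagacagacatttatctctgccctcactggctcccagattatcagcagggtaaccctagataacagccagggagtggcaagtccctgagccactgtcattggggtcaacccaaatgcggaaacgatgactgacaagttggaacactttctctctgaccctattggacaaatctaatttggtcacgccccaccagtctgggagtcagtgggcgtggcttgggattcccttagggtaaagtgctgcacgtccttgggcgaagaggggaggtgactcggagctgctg

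Of the 87 protein-coding members, 72 matched the promoter table by gene ID, with 77 windows. The NRF1 letters were in 15.6% of these windows against 2.71% of all 32851 windows in the table, the ETS letters in 24.7% against 8.86%, the YY1 letters in 13% against 2.75%, the estrogen-related receptor letters in 5.19% against 1.56% and the GC box in 45.5% against 35.7%. Ndufs8 holds the ETS letters on the opposite strand from base 16 after the start site. Sdhd holds the ETS letters from base -46, a GC box from base -3 and the receptor letters from base 37. Uqcrc1 holds 2 overlapping matches to the NRF1 letters, on opposite strands, from bases 31 and 33, and Cox5a holds 2 GC boxes. Atp5l holds the NRF1 letters from base -240, the ETS letters from bases -212 and 25, and the receptor letters from base -13. The Cox7a1 window holds none of the 5 motifs. A match is a run of letters only, no binding was measured, and a missing match says only that these letters are not in the window.

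Colon IEL were set against small intestinal IEL, arrays labelled as IEL of 2 stretches of the gut that both carried T cell genes but differed in other markers. The colon IEL array had lower levels of most subunits of all 5 complexes, with a median difference of -1.53, or 2.88-fold, over the 71 subunits. A gene was counted when its level on the brighter array reached that array's 50th percentile over genes, and it was called at a difference of at least 2-fold. By this rule 76 of the 89 genes were counted, of which 50 (65.8%) were lower and 0 higher on the colon IEL array, against 24.4% lower and 5.98% higher over all genes counted. Over all 89 genes, without the level rule, the median difference was -1.26, against 0.06 over all genes and 0.11 over the ribosomal protein genes. Over the 8 reference genes it was -1.03, and 4 of 8 (50%) were at least 2-fold lower. Levels spread less on the colon IEL array, and 2 corrections that take level or spread into account left a smaller difference. After quantile normalization the median was -0.59, with 26 genes lower (33.8%, against 13.7% of all genes counted). After a lowess correction for level it was -0.58, with 24 lower (31.6%, against 13.2%). All 50 genes stayed below 0 under each of the 6 scalings run, but they had been picked at 2-fold, and Ndufa3 came as near as -0.08. When the recolonized array stood for the colon the median was -0.64, with 30 genes lower and 2 higher. No share over all genes is given for that pair, so these 2 counts cannot be set against a background. The pan-epithelial markers had a median difference of -2.04 in this pair, the 8 small intestinal enterocyte markers -7.32, the T cell markers -0.38, the B cell markers -1.68, the stromal markers 2.08 and the 3 red cell markers 4.48.

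**Figure D2:**
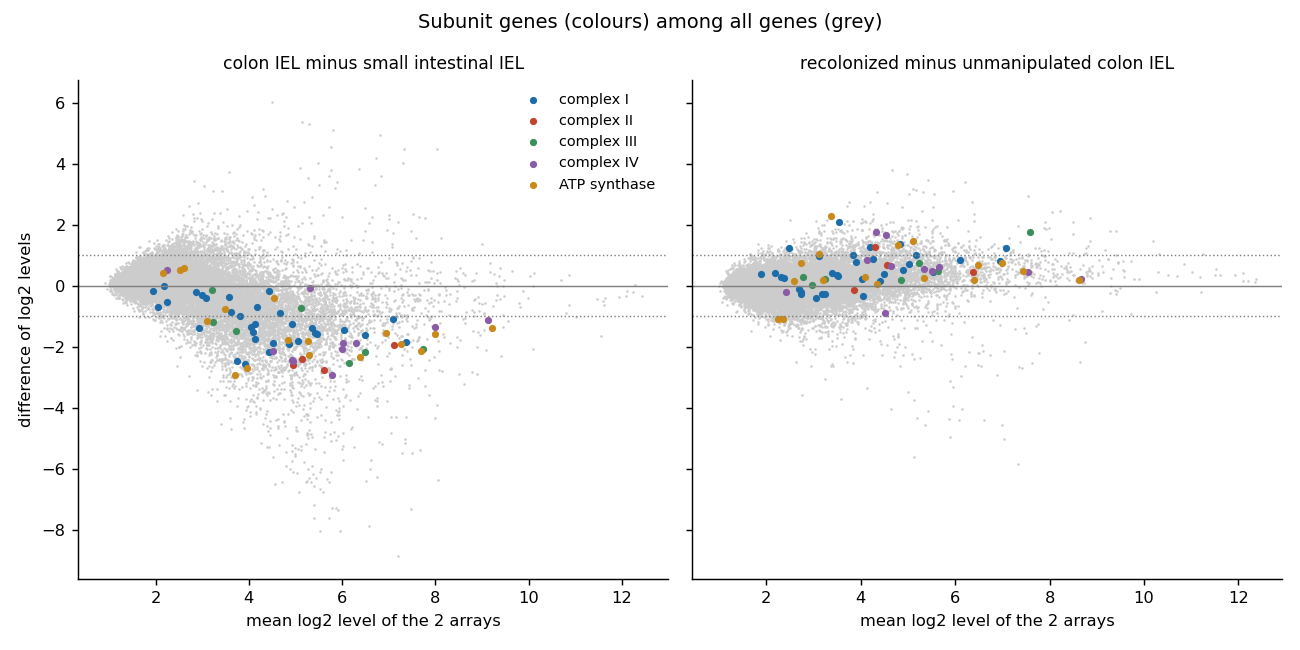
Difference of log2 levels (y axis) against the mean log2 level of both arrays (x axis) for all genes (grey) and the 71 subunit genes (coloured by complex), for colon IEL minus small intestinal IEL and for recolonized minus unmanipulated colon IEL; dotted lines mark 2-fold. In the left panel many grey genes of middle to high level also lie below 0, and the subunit genes reach -2.92. In the right panel the median of the subunits is 0.45. That direction turns under centring on ribosomal protein genes, which also sets the median of all genes at -0.60.

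Complex II had the largest median difference of the 5 complexes in this pair, -2.51 over its 4 subunits, and it kept that place under quantile normalization (-1.63), the lowess correction (-1.56) and with the mean of each gene's probe sets. Complex II is succinate dehydrogenase, the enzyme shared by the citric acid cycle and the respiratory chain. Its flavoprotein Sdha, which oxidizes succinate, was at 8.51 on the labelled LP array, 8.07 in small intestinal IEL, 6.14 in colon IEL and 6.60 in recolonized colon IEL. The iron-sulphur subunit Sdhb was at 6.55, 6.25, 3.65 and 4.93 on the arrays in the same order, which is also the order of the 4 values given for each gene hereafter. Both colon arrays thus lay below the other arrays for these catalytic subunits. The membrane anchor Sdhc, which helps to bind ubiquinone, was at 6.56, 6.34, 3.92 and 3.78. Its partner Sdhd was at 7.48, 6.99, 4.22 and 4.90. The 4 genes were between 3.83-fold (Sdha) and 6.83-fold (Sdhd) lower in colon than in small intestinal IEL. Between the small intestinal IEL and labelled LP arrays they differed by -0.49 to -0.22.

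Complex I, the NADH dehydrogenase, had a median difference of -1.32 between colon and small intestinal IEL over 32 subunits, of which 19 of 30 counted were at least 2-fold lower and 0 higher. After quantile normalization the median was -0.49, and -0.55 after the lowess correction. Its 6 measured core subunits, most of which carry the flavin or iron-sulphur clusters, had a median of -1.60. Ndufv1, which binds NADH, was at 6.80, 6.06, 4.67 and 5.36. Ndufv2, its partner in the NADH-oxidizing module, was at 6.50, 5.82, 3.91 and 4.13. Ndufs1, which carries several iron-sulphur clusters, was at 6.09, 5.00, 3.25 and 2.85. For these 3 genes the colon IEL array was more than 2-fold below the small intestinal IEL array, and Ndufs1 was lower still on the recolonized array. The subunits that pass electrons towards ubiquinone include Ndufs7, at 7.57, 6.76, 5.31 and 5.76. Ndufs8 was at 7.04, 5.97, 4.14 and 5.51, with the recolonized array closer to the small intestinal one. Ndufs3, also of the core, was at 4.28, 3.29, 2.88 and 2.61, and its difference of -0.41 between colon and small intestinal IEL was below 2-fold.

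The 26 accessory subunits of complex I surround the core, and their differences between colon and small intestinal IEL ran from -2.58 for Ndufa12 to 0 for Ndufb11. Ndufa12 was at 5.61, 5.21, 2.63 and 3.59. Ndufa11, a membrane subunit, was at 6.69, 4.97, 2.50 and 4.58. Both have a second, dimmer probe set, which gave a difference of -0.18 for Ndufa12 and 0.50 for Ndufa11, so the size for these genes depends on the probe set. Ndufa1, needed for assembly of the membrane arm, was at 6.47, 5.52, 3.34 and 4.34. Ndufb9 was at 9.51, 8.29, 6.46 and 7.70, more than 3-fold lower in colon than in small intestinal IEL. Ndufa9, near the ubiquinone site, was at 6.90, 5.45, 3.57 and 4.83. Ndufs4, whose loss in mice gives a model of Leigh syndrome, was at 6.00, 4.86, 3.33 and 3.04. These accessory subunits followed the core, and others did not. Ndufa5 was nearly level over the 4 arrays, at 4.76, 4.53, 4.35 and 4.48. Ndufb6 was at 3.30, 2.98, 2.76 and 2.63. Ndufb7, a twin cysteine protein of the intermembrane side, was at 4.76, 4.54, 3.83 and 4.69. Ndufb11 was at 2.40, 2.17, 2.17 and 2.45, close to the median gene of each array. Ndufs5, also dim, was at 1.58, 2.03, 1.86 and 3.09 and had its highest value on the recolonized array. A brighter probe set that Ndufs5 shares with the pseudogene Ndufs5-ps was at 4.79, 3.18, 2.61 and 2.71.

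The 8 assembly factors of complex I help to build the complex and are no part of the finished enzyme. Their median difference between colon and small intestinal IEL was -0.23, against -1.32 for the subunits, and 0 of the 5 counted differed by 2-fold. They were also dimmer, with a median level of 3.08 on the small intestinal IEL array against 4.92 for the subunits. The part of level in this contrast was not tested. Ndufaf4 was at 4.56, 3.68, 2.78 and 3.02. Ndufaf3 was at 3.97, 3.41, 2.50 and 3.05. Both were lower in colon than in small intestinal IEL by less than 2-fold. Ndufaf8 was at 4.61, 5.30, 4.54 and 4.90, with its highest value on the small intestinal IEL array. Ndufaf2, Ndufaf5 and Ndufaf6 were dim, between 1.49 and 2.72 on all arrays. Among assembly factors of the other complexes, from lists of genes outside the 89, 7 of 18 for complex IV, 0 of 5 counted for complex III, 0 of 2 counted for complex II and 1 of 4 for ATP synthase were lower in colon IEL by 2-fold or more, against 24.4% of all genes counted.

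Complex III, the cytochrome bc1 complex, had a median difference of -1.48 over 7 subunits, and 5 of 7 were at least 2-fold lower in colon than in small intestinal IEL. The core protein Uqcrc1, related to mitochondrial processing peptidases, was at 7.69, 7.43, 4.87 and 5.61. Its partner Uqcrc2 was at 8.46, 7.58, 5.40 and 5.87. The Rieske iron-sulphur protein Uqcrfs1 was at 4.93, 4.45, 2.97 and 2.98. Both colon arrays lay below both other arrays for these 3 genes. Uqcrb, a small subunit at the ubiquinone site, was at 9.42, 8.78, 6.71 and 8.47, with the recolonized array close to the small intestinal one. A dimmer probe set that Uqcrb shares with Gm10767 gave 0.17 in place of -2.07 between colon and small intestinal IEL. Uqcrq was at 3.65, 3.82, 2.63 and 2.92. The hinge protein Uqcrh, which helps cytochrome c to dock, was at 5.96, 5.49, 4.74 and 4.94. It and Uqcr11, at 4.04, 3.28, 3.14 and 3.36, differed least, by -0.74 and -0.14. Cyc1, the cytochrome c1 of this complex, lies outside the symbol rule and was at 6.94, 6.05, 3.76 and 3.84, also lower on both colon arrays.

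Cytochrome c itself, Cycs, which carries electrons from complex III to complex IV and also takes part in apoptosis, lies outside the symbol rule and had a larger difference between colon and small intestinal IEL than any of the 89 genes. Its brightest probe set was at 9.06 on the labelled LP array, 8.91 in small intestinal IEL, 3.61 in colon IEL and 6.74 in recolonized colon IEL. The colon IEL array was thus 39.3-fold below the small intestinal IEL array, and the recolonized array lay between them. The other 4 probe sets of Cycs gave differences of -3.93, -2.31, -2.31 and -0.69 in this pair, all below 0; those at -2.31 have identical values on every array. For recolonized against unmanipulated colon IEL the probe sets disagreed in sign, with 3.12 for the brightest and 1.17, -0.84, -0.84 and 0.01 for the others. The testis form Cyct stayed between 1.26 and 1.63 on all 4 arrays.

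Complex IV, cytochrome c oxidase, had a median difference of -1.90 over 11 broadly expressed subunits, and 9 of 11 were at least 2-fold lower in colon than in small intestinal IEL. Cox4i1, a regulatory subunit that binds ATP, was at 8.13, 6.97, 5.08 and 5.61. Cox5a, which takes part in early assembly of the complex, was at 8.52, 7.25, 4.33 and 4.96. It had the largest difference in this complex, 7.55-fold against small intestinal IEL and 18.3-fold against the labelled LP array. Cox5b, which binds zinc, was at 7.97, 7.04, 4.95 and 4.06, the only one of these with its lowest value on the recolonized array. Its dimmer probe set gave 0.50 in place of -2.08 between colon and small intestinal IEL. Cox6a1, a subunit at the dimer interface, was at 11.00, 9.69, 8.56 and 8.78. Cox6b1 was at 6.65, 5.58, 3.44 and 5.20. Cox8a, one of the smallest of these proteins, was at 9.32, 8.67, 7.32 and 7.77. All 3 were more than 2-fold lower in colon than in small intestinal IEL, and Cox6b1 was higher on the recolonized array. Cox7a2, the broad form of its subunit, was at 7.14, 6.19, 3.72 and 4.55. Cox7b was at 6.92, 6.15, 3.70 and 5.37, and its dimmer probe set gave -0.17 in place of -2.44 between colon and small intestinal IEL. Ndufa4, named for complex I and now known as a complex IV subunit, was at 7.01, 7.25, 5.35 and 5.96 and was the only subunit of this complex with a higher deposited level on the small intestinal IEL than on the labelled LP array. Cox7a2l, which joins complexes III and IV into supercomplexes, was nearly level at 5.71, 5.34, 5.27 and 5.73. Cox7c was dim, at 2.84, 1.99, 2.51 and 2.31.

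Most tissue-restricted isoforms of complex IV lay near or below the median gene of each array, with Cox7a1 as the exception. Cox7a1, known as the isoform of heart and skeletal muscle, was at 6.31 on the labelled LP array, 5.98 in small intestinal IEL, 3.06 in colon IEL and 3.58 in recolonized colon IEL. It was 7.54-fold lower in colon than in small intestinal IEL and 9.5-fold lower than on the labelled LP array. For its broadly expressed partner Cox7a2 these differences were 5.54-fold and 10.7-fold. The muscle isoform Cox6a2 was at 2.45, 2.69, 3.37 and 3.09, higher on the colon IEL array by 0.68 and 0.92, which is below 2-fold. The lung isoform Cox4i2 was at 1.97, 2.13, 2.31 and 1.97. The testis isoform Cox6b2 was at 2.12, 2.07, 2.71 and 2.47. Ndufa4l2, a paralogue known as a hypoxia target, was at 1.72, 1.73, 2.01 and 2.08. None of these 3 genes differed by 2-fold between any pair compared. Cox7b2, Cox8b and Cox8c were at most 1.77 on any array, and the pseudogenes Atp5c1-ps and Uqcrh-ps1 were between 1.26 and 1.53.

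**Figure D3:**
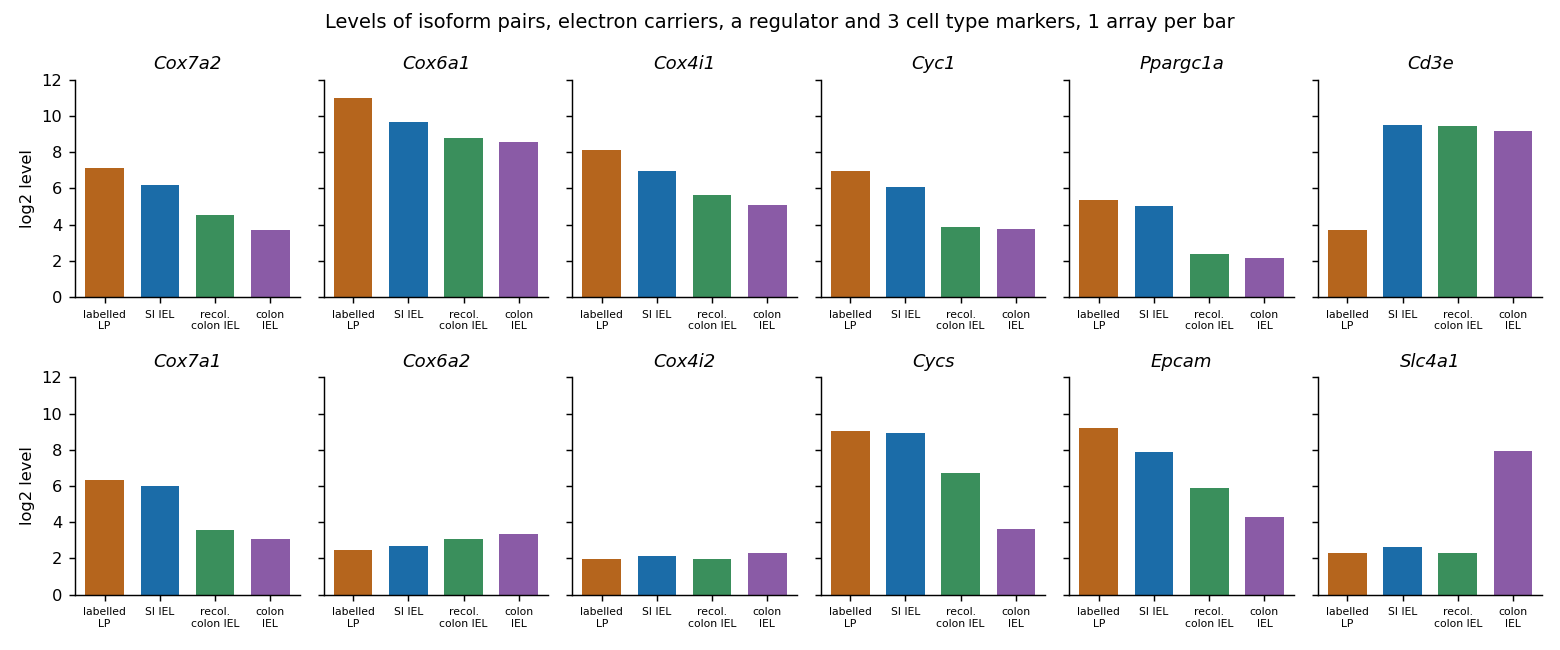
Log2 level (y axis, from 0) on each of the 4 arrays (x axis, 1 bar per array) for 3 complex IV isoform pairs (broad and restricted form), the electron carriers Cyc1 and Cycs, the coactivator Ppargc1a and the markers Epcam, Cd3e and Slc4a1. Cox7a1 and Cox7a2 are both lower on the 2 colon arrays, Cox6a2 stays at or below 3.37 and Cox4i2 at or below 2.31, and Cycs is at 8.91 on the small intestinal IEL array and 3.61 on the colon IEL array.

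ATP synthase had a median difference of -1.58 over 17 subunits, and 12 of 16 counted were at least 2-fold lower in colon than in small intestinal IEL. In the catalytic head Atp5b, the beta subunit that makes ATP, was at 10.54, 9.90, 8.52 and 8.71. Its alpha partner Atp5a1 was at 8.80, 8.23, 6.30 and 6.48. The gamma subunit Atp5c1, part of the rotating shaft, was at 3.65, 3.69, 2.52 and 2.66. For these 3 genes colon IEL differed from small intestinal IEL by -1.38, -1.93 and -1.17. The epsilon subunit Atp5e was at 5.59, 5.16, 2.23 and 4.51 and carried the largest difference of the 89 genes in this pair. Its other probe set, at 4.30, 4.15, 4.10 and 4.59, gave a difference of -0.05. The delta subunit Atp5d was at 5.83, 4.73, 4.33 and 4.37, and its other probe set gave -1.40 in place of -0.40.

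The proton-carrying ring of ATP synthase is made of identical c subunits encoded by 3 genes. Atp5g2 was at 8.45, 7.71, 6.16 and 6.82, and its 2 probe sets gave -1.56 and -1.32 between colon and small intestinal IEL. Atp5g3 was at 6.90, 5.72, 3.95 and 4.22. Atp5g1, at 1.94, 1.95, 2.37 and 3.11, was dim and had its highest value on the recolonized array, so the 3 genes for this protein did not share a pattern. In the stalk that holds the head still, Atp5pb was at 7.94, 7.54, 5.21 and 5.46. Atp5h was at 9.04, 8.77, 7.19 and 7.68, and its dimmer probe set gave -0.20 in place of -1.58. Atp5j was at 4.36, 3.87, 3.11 and 3.29, with a difference of -0.76 that is below 2-fold. The small membrane subunits had a median difference of -2.15. Atp5md, also known as DAPIT, was at 9.18, 8.77, 6.61 and 7.36. Atp5mpl was at 6.51, 5.30, 2.60 and 3.63. Atp5k, which takes part in dimers of the enzyme, was at 6.25, 6.42, 4.14 and 5.45, and Atp5l, with a like role, at 6.93, 6.18, 4.37 and 5.84. Both were closer to the small intestinal IEL level on the recolonized array than on the colon IEL array. Atp5o, which links the stalk to the head, was at 2.32, 2.27, 2.79 and 1.71. The membrane subunit Atp5j2 was at 1.77, 2.33, 2.90 and 1.81. Together with Cox7c and Atp5g1 they were the 4 subunits with a deposited difference above 0 between colon and small intestinal IEL, and all 4 were below 3 on both arrays of the pair; the difference of Atp5g1 turned to -0.043 under centring on ribosomal protein genes.

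Set against the labelled LP array, whose content went against its label, colon IEL had lower levels of the same machinery, with a median difference of -2.29, or 4.89-fold, over the 71 subunits. Of the 79 genes counted 62 (78.5%) were lower and 1 (1.27%) higher, against 34.7% and 10.5% of all genes counted. The median over all 89 genes was -1.98, against 0.10 over all genes, -0.19 over ribosomal protein genes and -0.96 over the 8 reference genes. After quantile normalization it was -1.06, with 46 lower (58.2%, against 20.7% of all genes counted), and after the lowess correction -0.83, with 38 lower (48.1%, against 18.4%). Complex IV stood lowest here, with a median of -3.02, and complex II followed with -2.76. With the mean of each gene's probe sets complex IV moved to -2.05 and complex II was lowest. Complex I had -2.16, ATP synthase -2.11 and complex III -1.96. Cox5a and Ndufa11 were each 18.3-fold lower, the latter with 0.24 by its other probe set, and Atp5mpl was 15-fold lower. Among counted subunits the smallest differences were those of Ndufb11, -0.23, Cox7c, -0.33, and Ndufa5, -0.41. The 1 higher gene was Atp5j2, with 1.13; the other subunits with a deposited difference above 0 were the dim Ndufs5, Atp5g1 and Atp5o, with 0.28, 0.43 and 0.47. Between these arrays the pan-epithelial markers had a median difference of -4.19 and the T cell markers of 3.28.

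**Figure D4:**
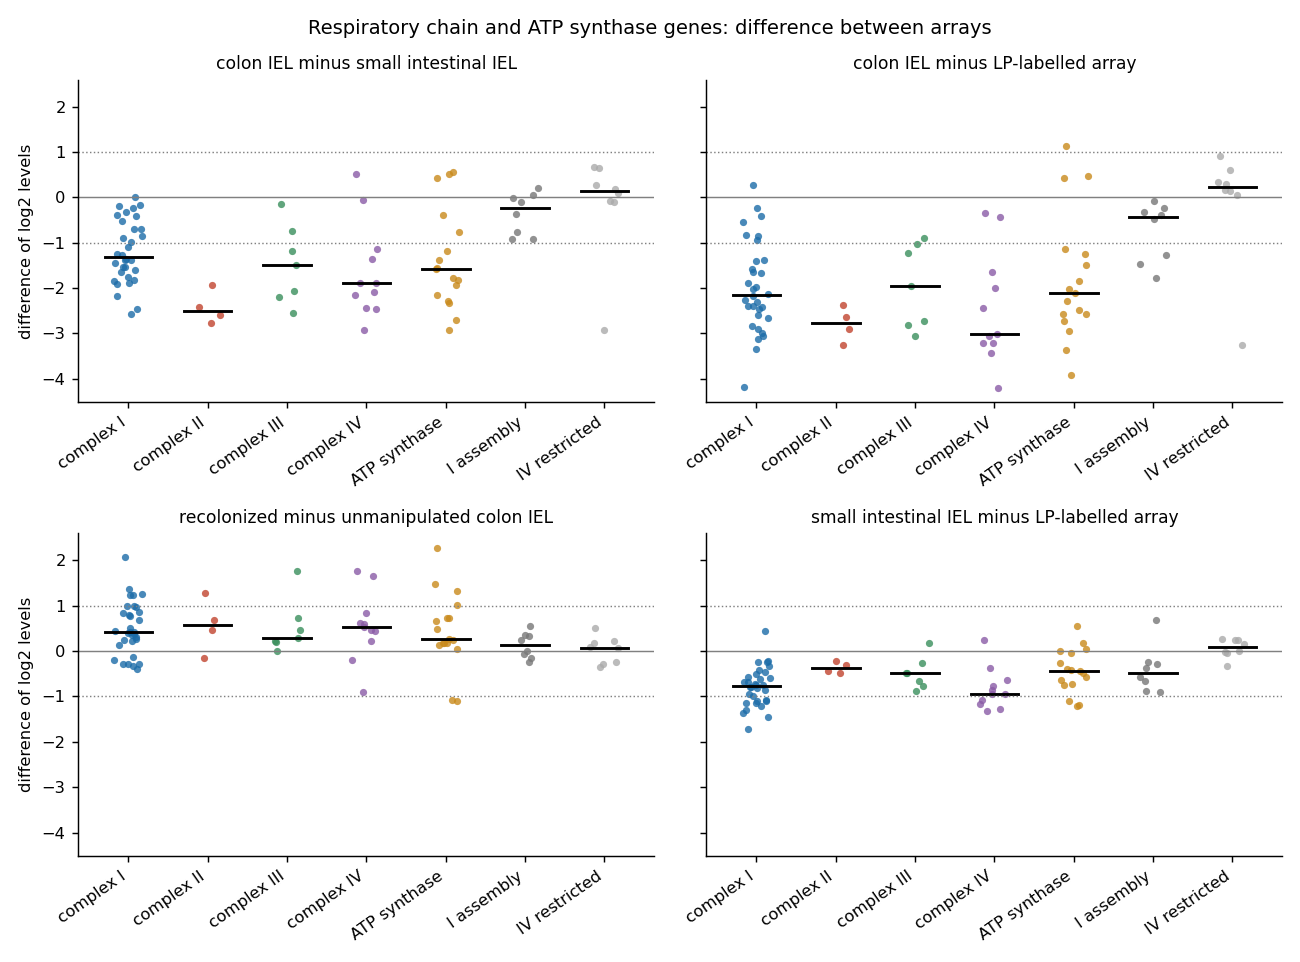
Difference of deposited log2 levels (y axis) for each gene (points, spread sideways at random) by complex or class (x axis), with the median as a black bar and dotted lines at 2-fold, in 4 comparisons of 2 arrays each. The medians of all 5 complexes lie below -1 for colon IEL against small intestinal IEL and against the labelled LP array. Those of assembly factors and restricted isoforms, which have lower median levels, lie nearer 0. In the other 2 comparisons the medians of the 5 complexes turn sign under centring on the level of ribosomal protein genes. That centring also sets the median of all genes at -0.60 (recolonized minus unmanipulated) and 1.21 (small intestinal IEL minus labelled LP).

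The small intestinal IEL array and the labelled LP array both carried epithelial transcripts, with the 8 enterocyte markers at medians of 9.55 and 7.07 and the 7 colonocyte markers at 3.83 and 9.64. Of 78 genes counted 17 (21.8%) were at least 2-fold lower on the small intestinal IEL array and 0 higher, against 15.7% lower and 8.76% higher over all genes counted. The share lower is near that of all genes, so the count is no result about these genes. Under centring on the level of ribosomal protein genes 0 were lower and 8 (10.7% of 75 counted) higher. Over all genes counted 3.94% were lower and 54.5% higher under that centring. The median over all 89 was -0.57, against -0.28 over ribosomal protein genes and 0.00 over all genes. Centring on the level of ribosomal protein genes set these 3 medians at 0.64, 0.93 and 1.21. Centring on the deviation of those genes from their own means, added after seeing the data, set them at -0.29, 0.003 and 0.28. With it 64 of the 89 genes lay below 0. By complex the deposited medians were -0.94 for complex IV, -0.76 for complex I, -0.48 for complex III, -0.43 for ATP synthase and -0.37 for complex II. All 5 lay above 0 under centring on the level of ribosomal protein genes. Of the 17 lower genes 10 belonged to complex I, 4 to complex IV and 3 to ATP synthase. Under each of the 6 scalings 8 of the 17 were below 0. Their choice at 2-fold largely set this in advance, and Ndufb9 came as near to 0 as -0.0064. Among these 8 were, as deposited, Ndufa11 with -1.72, Ndufa9 with -1.46, Cox6a1 with -1.31, Cox5a with -1.27 and Atp5mpl with -1.22. Other genes differed less, as Uqcrc1 with -0.26 and Atp5o with -0.05. Subunits with a deposited difference above 0 were Atp5j2 with 0.56, Ndufs5 with 0.45, Ndufa4 with 0.24, Atp5k with 0.17, Uqcrq with 0.17, Atp5c1 with 0.04 and Atp5g1 with 0.01. Cox7a1 differed by -0.33 and Cycs by -0.15.

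The recolonized array was set against the unmanipulated colon IEL array, a comparison that addresses what antibiotics and the later return of bacteria do to colon IEL. No array of antibiotics alone was used, so the 2 steps cannot be told apart. The 89 genes had a median difference of 0.35, with 71 above 0, which is close to the 0.36 of ribosomal protein genes, and it turned to -0.29 when arrays were centred on the median level of those genes and to -0.044 when they were centred on the deviation of those genes from their own means, an alternative added after seeing the data. All genes had a median of 0.03 as deposited, -0.60 under the first of these centrings and -0.36 under the second. Of 79 genes counted 14 (17.7%) were at least 2-fold higher and 2 (2.53%) lower on the recolonized array, against 6.04% and 3.06% of all genes counted. Of 54 ribosomal protein genes counted 9 (16.7%) were higher and 3 (5.56%) lower. The share higher is thus close to that of ribosomal protein genes and not particular to the 89. Under centring on the level of ribosomal protein genes 5 (6.67%) were higher and 4 (5.33%) lower, against 1.18% and 19.9% of all genes counted. Centring on their deviation gave 6 (7.89%) higher and 3 (3.95%) lower, against 2.09% and 10%. The lowess correction gave 10 (12.7%) higher and 3 (3.8%) lower, against 3.51% and 4.02%. Complex II had the largest median, 0.57, and ATP synthase the smallest, 0.27, and under centring on the level of ribosomal protein genes all 5 complexes lay below 0. The pan-epithelial markers had a median difference of 0.82 between these arrays, the T cell markers 0.74, the 7 colonocyte markers 2.10 (7 of 7 above 0) and the B cell markers -1.92 (5 of 5 below 0). Of the 6 stromal markers 3 were at least 2-fold higher (Dcn, Lum and Pdgfra) and 3 at least 2-fold lower (Col1a1, Col1a2 and Col3a1) on the recolonized array, and Slc4a1 was at 2.32 against 7.93.

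The 14 genes that were at least 2-fold higher on the recolonized array came from all 5 complexes. All 14 lay above 0 under each of the 6 scalings, but their choice at 2-fold largely set this in advance. Ndufa1, for one, had 1.00 as deposited and 0.37 at the lowest. Atp5e led with 2.27, and its other probe set gave 0.49. Ndufa11 followed with 2.07, and its other probe set gave 0.90. Cox7b had 1.67, but -0.18 by its other probe set. For these 3 genes the size therefore rests on 1 of 2 probe sets. Cox6b1, which lies on the intermembrane side of complex IV, was at 5.20 against 3.44. Uqcrb was at 8.47 against 6.71. Of ATP synthase, Atp5l had 1.48, Atp5k 1.32 and Atp5mpl 1.03. Of complex I, Ndufs8 had 1.37, Ndufa9 1.27, Ndufb9 1.24, Ndufs5 1.23 (0.10 by the probe set shared with Ndufs5-ps) and Ndufa1 1.00, and of complex II Sdhb had 1.28. Other subunits of the same complexes did not share the direction. Sdhc was at 3.78 against 3.92. The core subunits Ndufs1 and Ndufs3 differed by -0.40 and -0.27. The 5 accessory subunits of complex I, Ndufs4, Ndufa7, Ndufab1, Ndufb6 and Ndufc2, lay between -0.33 and -0.12, and Cox7c was at -0.20. Cox5b differed by -0.89, or -0.38 by its other probe set. The 2 genes at least 2-fold lower were the dim Atp5j2, at 1.81 against 2.90, and Atp5o, at 1.71 against 2.79. The catalytic subunit Atp5b differed by 0.19, Atp5d by 0.04 and Uqcrfs1 by 0.01.

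Genes that feed, supply or regulate the chain were taken from lists outside the 89. The citric acid cycle makes the NADH and succinate used by complexes I and II, and its genes (12 of 13 measured) had a median difference of -2.68 between colon and small intestinal IEL, and 11 of 12 were lower and 0 higher by the 2-fold rule. The mitochondrial carriers and porins (7 genes) had -2.08, with 5 of 6 counted lower. Both lists thus had larger median differences than the -1.53 of the respiratory subunits. They were also brighter, with median levels of 6.96 and 7.00 on the small intestinal IEL array against 5.52 for the subunits. The part of level in this contrast was not tested. The glycolytic genes (11 of 14 measured) had a median of -1.37, with 6 of 10 counted lower, and the protein import genes (16 of 18 measured) -0.39, with 4 of 14 counted lower and 1 higher. Over all genes counted 24.4% were lower and 5.98% higher, so the count of import genes is near the share of all genes. Against the labelled LP array the citric acid cycle genes had a median difference of -2.82, and 12 of 12 were lower. For recolonized against unmanipulated colon IEL it was 0.40, with 1 of 12 (8.33%) at least 2-fold higher and 0 lower, near the 6.04% higher over all genes counted.

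Of 12 regulators of mitochondrial genes, 2 (16.7%) were at least 2-fold lower in colon than in small intestinal IEL and 0 higher, which is no larger a share than the 24.4% lower over all genes counted. Ppargc1a, the coactivator PGC-1 alpha that drives mitochondrial gene programmes, was at 5.34, 5.03, 2.12 and 2.35, and on both colon arrays it was below the median gene. Its relative Ppargc1b was at 4.99, 2.54, 2.59 and 2.76, with its highest value on the labelled LP array. Gabpa, the ETS factor of the GABP pair and the other of the 2 lower genes, was at 4.63, 4.68, 3.56 and 4.11. Among the other factors whose letters were searched in the promoters, Nrf1 was at 3.82, 3.67, 3.17 and 3.59 and Yy1 at 6.24, 5.90, 5.35 and 5.76. For both, colon and small intestinal IEL differed by less than 2-fold. The estrogen-related receptor Esrra was at 5.08, 4.78, 5.41 and 4.91, with its highest value on the colon IEL array. Tfam, which packages and transcribes mitochondrial DNA, was at 4.06, 3.59, 2.66 and 3.11.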

How the data were processed

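The values are 1 table of log2 levels per probe set for 4 arrays, deposited by the authors; per the submitters' processing notes they were made with Affymetrix Expression Console. Its version and the summarization and normalization used were not given in the sources used here. That the scale is log2 was read from the range of the values. Of 41345 probe sets, 23521 carry 1 gene symbol in the platform annotation, 1814 several and 16010 none. A gene's value was that of its probe set with 1 symbol and the highest mean over the 4 arrays; other probe sets of a gene can disagree, and probe sets can take up RNA of near-identical pseudogenes. All 89 gene IDs matched RefSeq. Differences of log2 levels, medians and counts were computed with Python 3.11.15, numpy 2.4.6 and pandas 2.3.3, and lowess corrections (span 0.3) with statsmodels 0.14.6; the calls were checked on simulated data. The number of arrays limits the precision, and with 1 array per group no value has an error.

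The genes, the gene lists and the markers were chosen with earlier results of these data known. Values on all arrays are given for catalytic subunits, isoform pairs and, in each complex and pair of arrays, the 2 counted genes with the largest and the 2 with the smallest difference; others are named as examples of their complex. Alternatives were the level floor, the fold threshold, the mean of probe sets, quantile normalization, lowess correction, 2 centrings on array medians or ribosomal protein genes, subunits only, and the recolonized in place of the colon IEL array. An added centring used the deviation of ribosomal protein genes from their own means.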

Additional observations from a re-analysis of the deposited data

How the results depend on the processing

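No paired analysis was possible because each group has 1 array. A median counts as moved when it shifted by more than the SD over the ribosomal protein genes in that comparison, and a count when it changed by more than 1.5 times. The pseudocount alternative was not run, since the values are log2 already. Over all comparisons and settings 155 values stayed, 62 moved and 13 turned sign. The cause was not tested. For other fold thresholds or floors, and with the recolonized array standing for the colon, no share over all genes is given. Those counts cannot be set against a background.

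For colon IEL minus small intestinal IEL the median over the 89 genes was -0.64 with the recolonized array standing for the colon, -0.59 after quantile normalization and -0.58 after lowess correction. The count of lower genes was 33 at a 3-fold threshold and 30 with the recolonized array. It was 26 after quantile normalization (33.8%, against 13.7% of all genes counted) and 24 after lowess (31.6%, against 13.2%). The count of higher genes was 2 at 1.5-fold and 2 with the recolonized array. After quantile normalization complexes I, II, IV and ATP synthase had medians of -0.49, -1.63, -0.78 and -0.78, and after lowess -0.55, -1.56, -0.90 and -0.85.

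For colon IEL minus the labelled LP array the median was -1.06 after quantile normalization and -0.83 after lowess. It was -1.24 after centring on the level of ribosomal protein genes. After lowess 38 genes were lower (48.1%, against 18.4% of all genes counted). The count of higher genes was 0 with the floor at the 75th percentile and at 3-fold. It was 3 at 1.5-fold and 2 with the recolonized array. Quantile normalization gave 3 (3.8%, against 15.4% of all genes counted) and lowess 3 (3.8%, against 14.6%). Centring on genes above the floor gave 2 (2.6%, against 21.3%), on ribosomal deviations 2 (2.53%, against 14.6%) and on ribosomal levels 4 (5.26%, against 31.8%). Medians of complexes I, II, III, IV and ATP synthase were -1.07, -1.65, -1.35, -1.89 and -1.24 after quantile normalization, -0.88, -1.36, -1.01, -1.56 and -0.91 after lowess, and -1.42, -2.02, -1.22, -2.28 and -1.37 after centring on ribosomal levels. With the mean of probe sets complex IV had -2.05.

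For recolonized minus unmanipulated colon IEL the median turned to -0.29 after centring on ribosomal levels and to -0.044 after centring on ribosomal deviations. The count of higher genes was 29 at 1.5-fold and 5 at 3-fold. Centring on ribosomal levels gave 5 (6.67%, against 1.18% of all genes counted) and on ribosomal deviations 6 (7.89%, against 2.09%). The count of lower genes was 0 with the floor at the 75th percentile and at 3-fold. It was 4 (5.33%, against 19.9%) after centring on ribosomal levels. With that centring complexes I, II, III, IV and ATP synthase turned to -0.22, -0.063, -0.34, -0.10 and -0.36.

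For small intestinal IEL minus the labelled LP array the median turned to 0.64 after centring on ribosomal levels, and complexes I, II, III, IV and ATP synthase to 0.44, 0.84, 0.73, 0.27 and 0.77. The count of lower genes was 43 at 1.5-fold and 1 at 3-fold. It was 7 after quantile normalization (8.97%, against 10.5% of all genes counted) and 4 after lowess (5.13%, against 11.7%). Centring on genes above the floor gave 10 (12.8%, against 13%), on ribosomal levels 0 (against 3.94%) and on ribosomal deviations 5 (6.49%, against 11%). The count of higher genes was 1 at 1.5-fold and 8 after centring on ribosomal levels (10.7%, against 54.5%). Centring on ribosomal levels also set the median of all genes at 1.21 in this comparison (0.00 as deposited) and at -0.41, 0.84 and -0.60 in the other 3 in the order given above, and centring on genes above the floor set it at 0.30, 0.49, -0.01 and 0.15.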

Other observations

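Probe sets that carry several symbols could not be given to 1 gene and entered no count. The brighter probe set shared by Ndufs6, an accessory subunit of complex I, and the pseudogene Ndufs6b was at 7.37 on the labelled LP array, 6.27 in small intestinal IEL, 3.02 in colon IEL and 4.77 in recolonized colon IEL. The brighter probe set shared by Cox6c and Gm6265 was at 8.98, 7.89, 5.99 and 6.44 in that order. The probe set shared by Uqcr10, a small subunit of complex III, and Gm6293 was at 5.34, 3.94, 1.54 and 3.18. All 3 had the order of arrays seen in most of the measured subunits. The probe set shared by Ndufb2 and Adck2, at 2.79, 3.53, 2.68 and 2.36, did not.

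For 9 of the 89 genes a second probe set with 1 symbol gives a repeated measurement on the same arrays. Between colon and small intestinal IEL both probe sets had the same sign in 6 of 9 genes, and the median gap between them was 2.27 (at most 2.97). Against the labelled LP array the sign was shared in 8 of 9, with a median gap of 2.33 (at most 4.43). For recolonized against unmanipulated colon IEL it was shared in 7 of 9, with a median gap of 0.56 (at most 1.85), and for small intestinal IEL against the labelled LP array in 9 of 9, with a median gap of 0.21 (at most 1.46). The second probe set was the dimmer by the rule that chose the first. For Atp5g2 both were bright and gave nearly equal differences, -1.56 and -1.32 between colon and small intestinal IEL. For Atp5d both had nearly equal levels in small intestinal IEL (4.73 and 4.66) but gave -0.40 and -1.40. For Atp5e they gave -2.92 and -0.05, although in colon IEL the second was the brighter (4.10 against 2.23).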
